A study of Mus musculus with 8 samples.

Results

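The Hedgehog pathway was followed through 9 genes, Shh, Ihh, Ptch1, Hhip, Smo, Sufu, Gli1, Gli2 and Gli3, of 20145 genes that could be named on the array. The genes were chosen by symbol and their probes by RefSeq accession, with the difference between hydroxyurea and saline embryos already known. That difference is therefore given for each of them as a description only. The 9 genes were read by 12 probes, and each of these passed the filter on dim probes (a signal well above background on 4 or more of the 8 arrays).

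Hedgehog proteins are secreted signals that bind the receptor Patched. In the absence of a signal Patched keeps the membrane protein Smoothened inactive. Suppressor of fused holds the Gli transcription factors, some of which, chiefly Gli3, are cut to repressor forms. Binding of the signal frees Smoothened at the primary cilium, Gli proteins turn into activators, and Ptch1, Hhip and Gli1 are themselves among the genes they switch on. In the embryo at early organogenesis, Sonic hedgehog from the notochord and floor plate patterns the ventral neural tube and the somites, and Indian hedgehog is made in endoderm, that of the yolk sac included.

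Total RNA was taken from explanted whole embryos of the outbred CD-1 mouse stock on gestational day 9. The treated group of 4 samples came from dams given hydroxyurea, an inhibitor of ribonucleotide reductase, at 400 mg/kg by the intraperitoneal route 3 h earlier, and the control group of 4 samples came from dams given saline. The labels speak of 4 independent experiments and do not say which samples belong together or whether a sample is 1 embryo, a litter or a pool, so p-values measure only the spread between these samples, which may be technical. In RNA of a whole embryo, fewer cells of a type and less RNA per cell cannot be told apart. Each RNA was read on a 1-colour Agilent array, and values are log2 signals minus the array's own 75th percentile, so that 0 is the level below which 75% of its probes lie. Levels of different genes are not compared, since probes differ in brightness.

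The arrays lay on 2 slides with 2 arrays of each group on each. Between 48.7% and 62.3% of spots were well above background, the lowest on hydroxyurea 3, and 0 were saturated. Of 23173 features tested with limma, 1426 (6.15%) had a Benjamini-Hochberg adjusted p under 0.05, here called, with 640 higher (2.76%) and 786 lower (3.39%) after hydroxyurea. An unadjusted p under 0.05 was far more common, in 5737 of the 23173, and counts at that level are to be set beside it. Ccng1 and Cdkn1a, p53 targets named as a check of treatment, were higher by 3.20 ± 0.14 (SE) and 3.02 ± 0.24 (limma adjusted p = 1.89e-05 and 0.000268), with every treated array above every saline array. Of the markers that define the embryo, 6 of 6 were measured and 0 were called, with 3 at an unadjusted p under 0.05 and of both signs (Sox2 at -0.51, Cdh5 at -0.76 and Myh6 at 0.49), and their mean level lay between 2.44 and 2.88 on the hydroxyurea arrays and between 2.63 and 3.00 on the saline arrays. Hydroxyurea 2 and 3 stood apart from the rest in Prl8a2, a gene of the maternal decidua, and Prl3d1, a gene of trophoblast giant cells. Prl8a2 read 2.40 and 6.03 there and at most -2.03 elsewhere, and Prl3d1 read 2.40 and 1.43 there and at most -2.39 elsewhere. Other markers of these tissues did not set those 2 arrays apart: Cyp11a1 read -2.91, -2.0 and -2.90 on hydroxyurea 2, 3 and 4 and at most -6.67 elsewhere, Dcn was highest on hydroxyurea 4 (1.78), Hand2 on hydroxyurea 1 (2.53), and Prl3b1 (0.07 and 0.33) was within the range of the saline arrays. The decidual list had 3 of 5 genes measured and 0 called, with a mean between -0.97 and 3.06 on the hydroxyurea arrays and between -1.57 and 0.14 on the saline arrays, and Prl3c1 was well above background on 0 arrays. The trophoblast list had 4 of 6 genes measured and 1 called, lower (Hand1, at -1.42, a gene of embryonic heart and lateral mesoderm too), with a mean between 0.07 and 1.66 and between 0.09 and 0.49, and Tpbpa was well above background on 0 arrays. Gcm1, also of the trophoblast list, varied widely in both groups and was not called. It read 4.56, 3.92, 2.60 and 5.14 on hydroxyurea arrays 1 to 4 and 2.64, 0.86, 2.46 and 5.03 on saline arrays 1 to 4. Its difference was 1.31, with 0.26 and 0.18 at other measured probes. The part of these tissues in the differences was not tested. The difference of each of the 9 genes was also computed without hydroxyurea 2 and 3, which does not cover the spread of Gcm1.

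Ptch1 was the Hedgehog gene that differed most, 4.42-fold lower after hydroxyurea. It alone of the 9 fell past the threshold used for all features (1 of 9, beside 6.15% of features), a count from which nothing is read because this contrast was known when the genes were chosen. The other 8 genes had log2 differences between -0.67 and 0.32, with both signs. Over the 9 genes, 4 differences were positive and 5 negative, and their median was -0.03, beside 0.04 over all features. Gli1 and Hhip, the other genes of the set that Gli proteins induce, differed by 0.32 and 0.19, and the ligand Shh by -0.03. Differences between these genes were not tested.

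**Figure D1:**
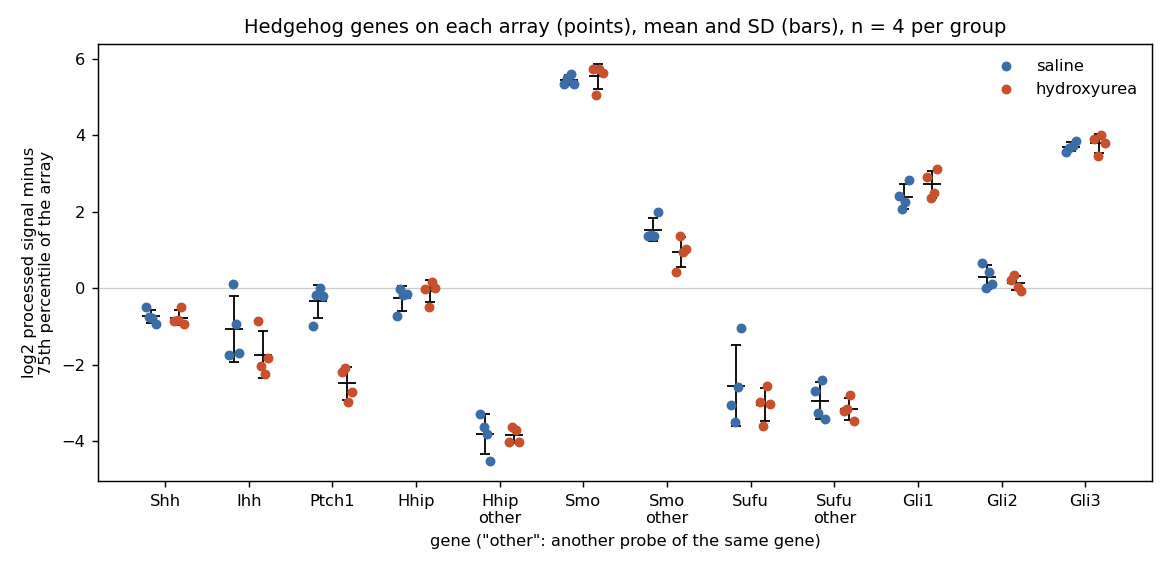
Signal of each Hedgehog probe on each of the 8 arrays (vertical axis: log2 processed signal minus the array's 75th percentile; horizontal axis: gene, with a second probe of the same gene marked as other), with the mean and SD of each group as bars. The 4 hydroxyurea points of Ptch1 lie between -2.98 and -2.08, all below the saline points, while the groups overlap at every other probe except the second probe of Smo.

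The upstream windows of Ptch1 and Gli2 are shown because Ptch1 carries the difference and the Gli2 window holds the core of the Gli binding motif. It is the only one to do so of the 7 windows searched. RefSeq windows of the GRCm38.p6 build were at hand for 7 of the 9 genes (Ihh, Gli2, Smo, Hhip, Gli3, Ptch1 and Sufu), not for Shh and Gli1. They cover 250 bases before the annotated start of the gene and are printed 5′ to 3′ in the direction of transcription, with a match to the core in capitals. The Ptch1 window lies at chr13:63565736-63565985 and the Gli2 window at chr1:119053620-119053869, both on the minus strand.
Ptch1: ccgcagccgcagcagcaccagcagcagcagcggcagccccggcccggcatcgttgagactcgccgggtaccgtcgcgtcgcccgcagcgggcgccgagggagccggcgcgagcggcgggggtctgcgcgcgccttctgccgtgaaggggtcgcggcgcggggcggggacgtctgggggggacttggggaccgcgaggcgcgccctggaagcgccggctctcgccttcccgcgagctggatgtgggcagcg
Gli2: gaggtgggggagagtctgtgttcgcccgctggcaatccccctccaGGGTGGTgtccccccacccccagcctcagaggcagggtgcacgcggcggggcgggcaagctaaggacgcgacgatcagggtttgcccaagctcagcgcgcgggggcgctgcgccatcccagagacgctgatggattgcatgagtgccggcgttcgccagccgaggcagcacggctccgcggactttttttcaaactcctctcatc
The full Gli motif GACCACCCA, searched on both strands, was in 0 of the 7 windows and in 0.225% of 32851 windows of the same length over the genome's genes. Its core ACCACCC was in 1 of the 7 windows and in 3.92% of all windows, and each match to the full motif is also a match to the core. In Gli2 the core stands on the other strand (GGGTGGT in the printed sequence) and begins at position -205 from the start. The Ptch1 window holds 41 CpG dinucleotides and 78.4% G and C, and the Gli2 window holds 22 CpG, beside a median of 6 and an upper quartile of 16 over all windows. A match is a description of letters only, and these windows leave out most of the regulatory sequence of each gene.

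Of the ligands, Sonic hedgehog (Shh, NM_009170) is the signal of notochord and floor plate. Its probe was spotted 10 times, and 8 to 10 spots were kept per array, with an SD between spots of 0.0414 to 0.308. It read -0.84, -0.82, -0.48 and -0.92 on hydroxyurea arrays 1 to 4 and -0.49, -0.75, -0.77 and -0.92 on saline arrays 1 to 4. The highest array of each group was near -0.5 and the lowest at -0.92, so the groups overlapped over nearly their whole range. The means were -0.77 ± 0.20 (SD, n = 4) and -0.73 ± 0.18 (SD, n = 4), a log2 difference of -0.03 ± 0.16 (SE). The difference was -0.21 on slide 1 and 0.14 on slide 2, and it was negative in 16 and positive in 5 of 21 other settings. With median centring it was 0.08, with quantile normalization 0.00, and without hydroxyurea 2 and 3 it was -0.15. The SD of Shh among saline arrays was lower than that of most features (percentile 30.9).

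Indian hedgehog (Ihh, NM_010544) is the ligand of endoderm. It read -0.85, -2.02, -2.23 and -1.81 on the hydroxyurea arrays and -1.73, 0.11, -0.93 and -1.70 on the saline arrays. Saline 2 stood highest and hydroxyurea 3 lowest, but hydroxyurea 1 was above 3 of the 4 saline arrays, so the groups overlapped. The means were -1.73 ± 0.61 and -1.06 ± 0.86 (SD, n = 4), a difference of -0.67 ± 0.44 (SE), and it was similar on slide 1 (-0.63) and slide 2 (-0.71). The value rested on single arrays. Without saline 2 it was -0.28, without hydroxyurea 2 and 3 it was -0.27, and without hydroxyurea 1 it was -0.96. The saline SD was in the 96.1 percentile of all features.

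Ihh was set beside markers of yolk sac endoderm. The mean of 6 markers of yolk sac endoderm (Afp, Ttr, Apoa1, Apob, Amn and Cubn), all measured, ranged from -1.36 to 1.73 on the hydroxyurea arrays and from -0.73 to 3.48 on the saline arrays. None of the 6 was called (0 of 6 by limma, and 0 of 6 at an unadjusted p under 0.05, beside 5737 of 23173 features), and their median difference was -0.89. Over the 8 arrays Ihh and this mean had Pearson's r = 0.849 (exact permutation p = 0.00724, adjusted over 9 such relations 0.0652) and Spearman's rho = 0.786 (exact permutation p = 0.0279, adjusted 0.251). The relation was looked for after the values were seen. Within groups, with the group means removed, r was 0.835. Without saline 2 and hydroxyurea 3, the arrays farthest from the median marker level, r was 0.476 (n = 6), so the relation rests on those arrays. For the other Hedgehog genes, r over all arrays lay between -0.56 (Shh) and 0.53 (Ptch1), with exact permutation adjusted p of 0.529 or more. Within groups it lay between -0.62 (Shh) and 0.74 (Ptch1). For Ptch1 it was 0.04 without those 2 arrays. Each slide held 4 arrays, too few for a value of its own. How much of the Ihh or Ptch1 difference goes with yolk sac tissue in the samples was not tested.

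**Figure D2:**
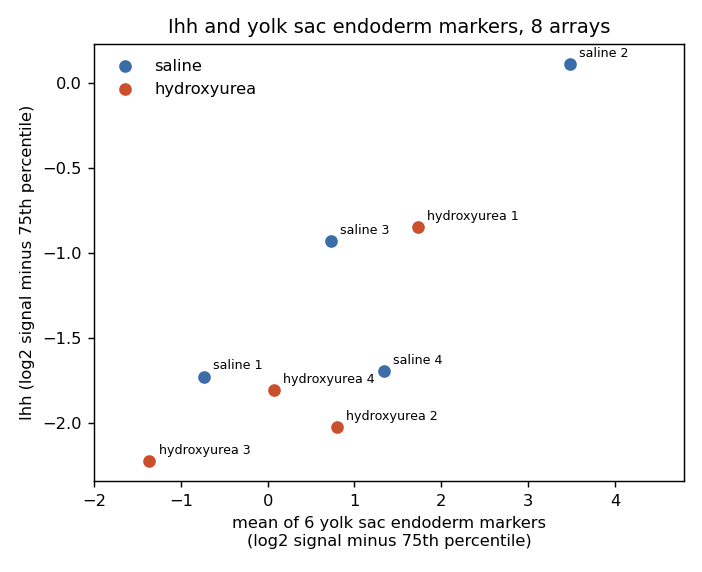
Ihh against the mean of 6 yolk sac endoderm markers, 1 point per array (both axes: log2 processed signal minus the array's 75th percentile). Saline 2 is at the upper right with 3.48 and 0.11, hydroxyurea 3 at the lower left with -1.36 and -2.23, and the other arrays of both groups mix between them.

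Patched 1 (Ptch1, NM_008957) is the receptor that holds Smoothened inactive and is itself induced by Hedgehog signalling. It was read by 1 probe in 1 spot, well above background on all 8 arrays. Before scaling, the processed signal was 77.3, 99.9, 31.7 and 73.6 on hydroxyurea arrays 1 to 4 and 236, 457, 304 and 264 on saline arrays 1 to 4. After scaling it read -2.17, -2.08, -2.98 and -2.71 after hydroxyurea and -0.98, -0.18, 0.01 and -0.21 after saline. All treated arrays were below all saline arrays before and after scaling, and 1.1 separated the highest treated array from the lowest saline array, which was saline 1. Groups did not overlap in 15.5% of all features. The means were -2.48 ± 0.43 and -0.34 ± 0.44 (SD, n = 4), a log2 difference of -2.15 ± 0.27 (SE). Of 14658 named genes tested, 43 had a lower difference.

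The Ptch1 difference was -1.55 on slide 1 and -2.74 on slide 2. Tested as an interaction of treatment and slide, this gap was -1.20 ± 0.44 (SE) with an adjusted p of 1 by limma, where 0% of features were called and 0.949% had an unadjusted p under 0.05 (for Ptch1, 0.0277). Among 21 other settings the difference lay between -2.74 and -1.38. The value nearest 0, -1.38, came from another background correction (normexp on the median signals). Leaving out any 1 array gave -2.36 to -1.98. Without hydroxyurea 2 and 3, the arrays with high Prl8a2 and Prl3d1, it was -2.10. In the authors' deposited table, whose log2 values are centred per probe, the Ptch1 probe was the only one of the 12 Hedgehog probes among 1346 probes, with -0.65, -0.55, -1.47 and -1.18 on the hydroxyurea arrays and 0.55, 1.35, 1.53 and 1.32 on the saline arrays.

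**Figure D3:**
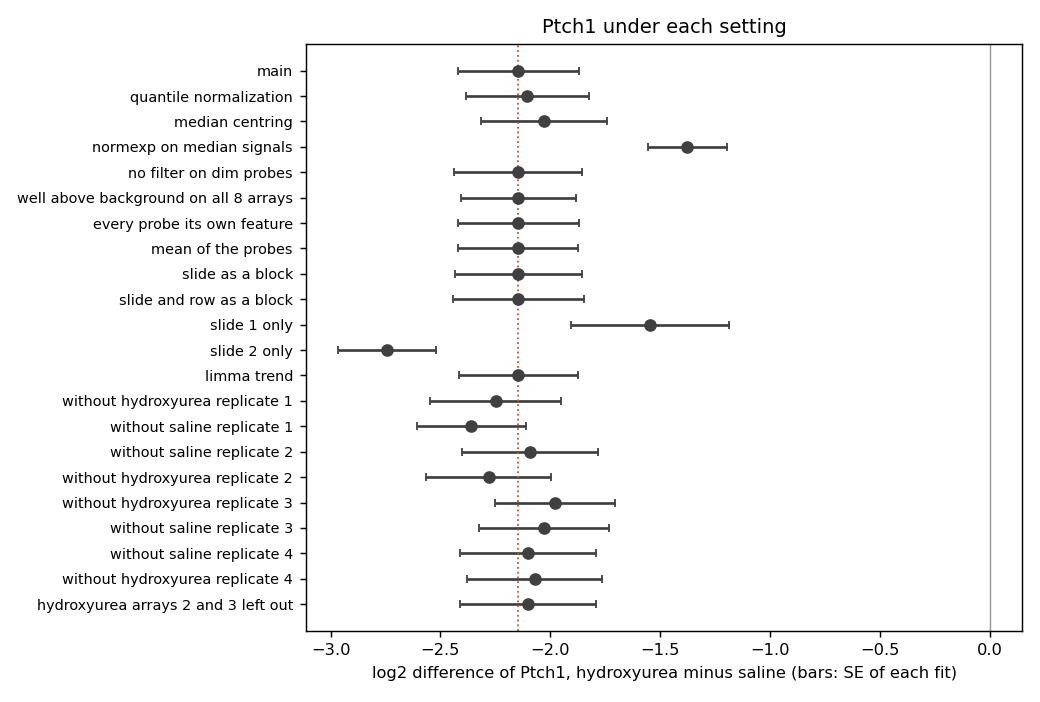
Log2 difference of Ptch1, hydroxyurea minus saline (horizontal axis), under the main and 21 other settings (vertical axis), with the SE of each fit as bars and the main value as a dotted line. Every point is below 0, from -2.74 on slide 2 alone to -1.38 with normexp.

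The named genes whose values over the 8 arrays were most like those of Ptch1, of 14623 compared, were Actn1, an actin crosslinker (r = 0.99, and 0.91 within groups), Rmrp, the RNA of an RNA-processing enzyme (0.99 and 0.87), and Prm1, a sperm chromatin protein (0.98 and 0.86). Their log2 differences were -0.82 ± 0.15, -2.0 ± 0.27 and -5.87 ± 0.43 (SE), and Prm1 was well above background on 1 of the 4 hydroxyurea arrays. A gene with the same split between groups is bound to score high here, and the values within groups are the part that does not use the split. None of the 3 was in the Hedgehog lists.

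Hedgehog-interacting protein (Hhip, NM_020259) is a membrane decoy that binds the ligands and, like Ptch1, is induced by the pathway. It read -0.01, -0.49, 0.17 and 0.02 on the hydroxyurea arrays and -0.72, -0.01, -0.18 and -0.14 on the saline arrays. The groups overlapped, and the lowest array was a saline one. The means were -0.08 ± 0.29 and -0.26 ± 0.32 (SD, n = 4), with a difference of 0.19 ± 0.21 (SE), 0.12 on slide 1 and 0.26 on slide 2, and positive in all 21 other settings. A second, dim probe of Hhip, well above background on 3 arrays of each group, gave -0.03 ± 0.26 (SE), with -0.36 on slide 1 and 0.31 on slide 2. Neither probe of Hhip separated the groups.

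Smoothened (Smo, NM_176996) carries the signal into the cell, and its 2 probes gave different pictures. The brighter probe read 5.75, 5.07, 5.75 and 5.63 after hydroxyurea and 5.34, 5.50, 5.62 and 5.34 after saline, with overlapping groups. Its difference was 0.10 ± 0.18 (SE), -0.01 on slide 1 and 0.21 on slide 2, and without hydroxyurea 2 and 3 it was 0.24. The other probe read 0.44, 1.37, 0.96 and 1.04 after hydroxyurea and 1.38, 1.40, 1.38 and 1.99 after saline. There every treated array was below every saline array, by as little as 0.0064, and such a split was seen in 15.8% of all probes. Its difference was -0.58 ± 0.23 (SE), -0.48 on slide 1 and -0.68 on slide 2. The mean of both probes gave -0.24, so the sign for Smo depends on the probe.

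Suppressor of fused (Sufu, NM_015752), which binds Gli proteins in the cytoplasm, was dim at both of its probes. The probe that stands for the gene read -2.98, -3.61, -2.55 and -3.02 after hydroxyurea and -3.04, -3.49, -2.59 and -1.05 after saline. Saline 4 stood above the other 7 arrays, and the remaining saline arrays lay within the range of the treated ones. The difference of -0.50 ± 0.48 (SE) was -0.03 on slide 1 and -0.97 on slide 2, and without saline 4 it was 0.00. The saline SD of 1.06 was in the 97.9 percentile of all features. The second probe gave -0.22 ± 0.26 (SE), with -0.22 on both slides and -3.41 on saline 4, among its lowest values.

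Gli1 (NM_010296), an activator that the pathway induces and a common readout of its activity, read 2.92, 2.35, 2.48 and 3.11 after hydroxyurea and 2.42, 2.09, 2.25 and 2.84 after saline. Of the treated arrays, 2 were above every saline array and 0 below, and the ranges overlapped. The means were 2.72 ± 0.36 and 2.40 ± 0.32 (SD, n = 4), a difference of 0.32 ± 0.23 (SE), 0.38 on slide 1 and 0.25 on slide 2. It was positive in all 21 other settings, from 0.19 to 0.62. The highest of these, 0.62, left out hydroxyurea 2 and 3. The sign was opposite to that of Ptch1, but the Gli1 groups overlapped, and the difference between the 2 genes was not tested.

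The genes most like Gli1 over the 8 arrays were Uckl1, a uridine kinase-like gene (r = 0.98, and 0.98 within groups), Iglon5, a cell adhesion gene (0.97 and 0.97), and Pinx1, a telomerase inhibitor (0.97 and 0.97). Their differences of 0.32, 0.29 and 0.23 were near that of Gli1. The genes most like Shh were Prtn3, a protease of granulocytes (0.96, and 0.97 within groups), Foxn2, a forkhead factor (0.96 and 0.97), and Gga3, a trafficking adaptor (0.95 and 0.97). Their differences were -0.13, 0.02 and 0.02. These are the highest of 14623 correlations over 8 arrays for each gene, and they are given as a description.

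Gli2 (NM_001081125), the main activator at the start of signalling, read 0.23, 0.34, 0.03 and -0.06 after hydroxyurea and 0.66, 0.00, 0.43 and 0.11 after saline. The groups overlapped, and the difference was -0.16 ± 0.19 (SE), -0.04 on slide 1 and -0.28 on slide 2. Gli3 (NM_008130), the main repressor, read 3.91, 3.46, 4.01 and 3.80 after hydroxyurea and 3.57, 3.67, 3.72 and 3.85 after saline. Its groups overlapped too, with a difference of 0.09 ± 0.16 (SE), 0.06 on slide 1 and 0.12 on slide 2. Its saline SD of 0.12 was low among all features (percentile 12.4). Gli2 was negative and Gli3 positive in all 21 other settings, but both differences were smaller than their SE.

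**Figure D4:**
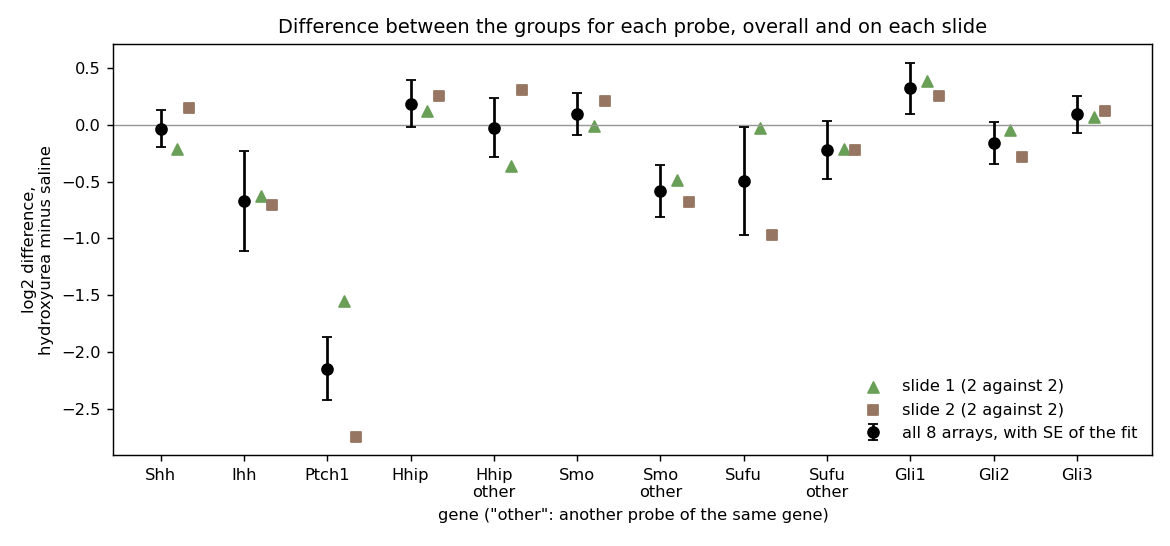
Log2 difference, hydroxyurea minus saline (vertical axis), for each Hedgehog probe (horizontal axis), over all 8 arrays with the SE of the fit as bars and on each slide alone (triangles slide 1, squares slide 2; 2 arrays against 2). Ptch1 is at -2.15, with -1.55 and -2.74 on the slides, and the other probes lie between -0.67 and 0.32.

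The rest of the pathway was read through 87 further genes in 6 lists by role, of which 84 were measured. Of the 84, 6 were called (7.14%, beside 6.15% of all features), 2 higher and 4 lower, and 78 were not. These lists too were chosen with earlier results of these data known. The calls and adjusted p-values below are therefore a description, and nothing is read from their count. The median difference over the 84 was 0.09, beside 0.04 over all features. Each list held at most 2 of the called genes. The groups did not overlap in 17 of the 84, beside 15.5% of all features.

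Among 12 measured genes of ligand release and co-receptors, 1 rose and 1 fell. Dhh, another Hedgehog ligand, known from testis and peripheral nerve, rose from -1.85, -1.69, -1.67 and -1.25 on the saline arrays to -0.74, -0.44, -0.54 and -0.24 on the treated arrays. That is 2.18-fold, a difference of 1.12 ± 0.18 (SE, limma adjusted p = 0.0086), with all treated arrays above all saline arrays and 1.18 and 1.07 on the slides. It was called in 19 of 21 other settings, the exceptions being either slide alone. Gas1, a co-receptor that helps cells respond to Shh, fell from 2.46, 2.71, 2.38 and 2.69 to 1.61, 1.70, 1.69 and 1.30. The difference was -0.98 ± 0.16 (SE, limma adjusted p = 0.0086), 1.98-fold lower. Both other probes of Gas1 gave lower means after hydroxyurea (-0.89 and -0.53) without being called, and the mean of its probes (-0.80) was not called, nor was either slide alone. Both genes are also in the authors' deposited table, which comes from these same arrays. Unlike the ligands Shh and Ihh, whose arrays overlapped, Dhh separated the groups, though the difference between the ligands was not tested. The co-receptors Boc (-0.33, limma adjusted p = 0.224) and Cdon (-0.04, adjusted p = 0.916) were not called and are named here after their values were seen. A second, dimmer probe of Cdon gave -0.55 ± 0.18 (SE, limma over every probe, adjusted p = 0.102). There all treated arrays were below all saline arrays, a split seen in 15.8% of all probes, so the probes of Cdon differ.

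Among 21 cytoplasmic transducers, 1 fell and 0 rose, with a median of 0.18. Prkaca, a catalytic subunit of protein kinase A, which phosphorylates Gli proteins for processing, fell from -0.41, -0.46, -0.28 and -0.55 to -1.86, -0.79, -1.49 and -2.05. The difference was -1.13 ± 0.26 (SE, limma adjusted p = 0.0358). The call was lost without any 1 of hydroxyurea 1, 3 and 4 or of the 4 saline arrays (-1.17 to -0.96), when slide was a block (adjusted p = 0.0507 by limma), with no filter on dim probes (0.0944) and on either slide alone. Among 16 genes of the primary cilium, where the pathway runs, 0 were called by limma. Of the 16, 3 had an unadjusted p under 0.05, beside 5737 of 23173 features. The lowest p belonged to Mks1, a gene of the transition zone, at 0.56 ± 0.15 (SE, limma adjusted p = 0.064), and to Arl13b, a ciliary GTPase, at 0.65 ± 0.18 (SE, adjusted p = 0.0666). For both, all treated arrays were above all saline arrays, a split seen in 15.5% of all features.

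A second probe of the cilium gene Inpp5e, a phosphatase, stood out after its values were seen. It read 1.98, 2.90, 3.41 and 3.31 on the saline arrays and -1.14, -0.59, -0.93 and -1.46 after hydroxyurea, a difference of -3.93 ± 0.33 (SE, limma over every probe, adjusted p = 0.00039, beside 6.82% of probes called). The brightest probe of the gene by the rule, the one that stands for it, gave 0.08 ± 0.14 (SE), and another probe -0.26 ± 0.21 (SE). The 3 probes of Inpp5e thus did not give 1 direction.

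Among 20 measured genes that Hedgehog signalling induces in neural tube, somites and gut mesoderm, 2 fell and 0 rose, with a median of -0.02. Nkx2-2, a factor of the ventral neural tube next to the floor plate, fell from -0.99, -0.44, -0.92 and -1.08 to -1.72, -1.69, -1.32 and -1.77. The difference was -0.77 ± 0.19 (SE, limma adjusted p = 0.0439). Another, dimmer probe of Nkx2-2 gave -0.01 ± 0.18 (SE), and the call was lost without any 1 of hydroxyurea 1 and 4 or of the 4 saline arrays (-0.84 to -0.63). By limma it was also lost with the slide (adjusted p = 0.0658) or the slide and row (0.0666) as a block, with median centring (0.118), normexp (0.0793), no filter (0.119) and the mean of the probes (0.169, difference -0.39), and on either slide alone. Foxf1, a factor of gut and lateral mesoderm, fell from -2.75, -2.49, -3.02 and -3.34 to -4.10, -3.62, -4.78 and -5.69. The difference was -1.65 ± 0.41 (SE, limma adjusted p = 0.0455), but the probe was well above background on only 2 of the 4 treated arrays. Its call was lost without any 1 array other than hydroxyurea 2 (-1.80 to -1.27). It was also lost with no filter on dim probes and on either slide alone, and normexp gave -0.44 and no call. A second, dim probe of Pax9, named after its values were seen, was well above background on 4 saline and 0 treated arrays. It passed the filter only through the saline arrays, so no p is given for it. Its saline mean was at least 2.15-fold the treated one, with treated values set no lower than the array's dimmest probe well above background. The brighter probe of Pax9 gave -0.24 ± 0.15 (SE).

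Among 6 genes that Hedgehog signalling limits in the neural tube, 0 were called by limma, with a median of -0.22. Of the 6, 3 had an unadjusted p under 0.05, beside 5737 of 23173 features. Pax7 (-0.78 ± 0.22 SE, limma adjusted p = 0.0669) and Pax6 (-0.70 ± 0.23 SE, adjusted p = 0.109), both factors of neural progenitors, had the lowest p. Their treated arrays were all below the saline arrays, for Pax6 by as little as 0.013, a split seen in 15.5% of all features. A second, dimmer probe of Pax3, named after its values were seen, gave -0.72 ± 0.18 (SE, limma over every probe, adjusted p = 0.0478). The probe that stands for Pax3 gave -0.40 ± 0.15 (SE, limma adjusted p = 0.142). Among 9 measured genes of notochord and floor plate, the tissues that make Shh, 1 rose and 0 fell. Foxj1, a factor of motile cilia, rose from -1.51, -2.56, -1.65 and -2.02 to -0.95, -1.14, -0.59 and -0.71, a difference of 1.09 ± 0.24 (SE, limma adjusted p = 0.0339). Its call was lost without any 1 of hydroxyurea 1, 3 and 4 or of saline 2, 3 and 4 (0.88 to 1.18), without hydroxyurea 2 and 3 (1.11, adjusted p = 0.0501 by limma), with no filter on dim probes (0.0903) and on either slide alone. Foxa2, which marks the floor plate and is named after its values were seen, differed by -0.01 ± 0.27 (SE). It does not stand for the 9 genes of this list, which ranged from -0.77 to 1.09, with 5 positive and 4 negative.

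**Figure D5:**
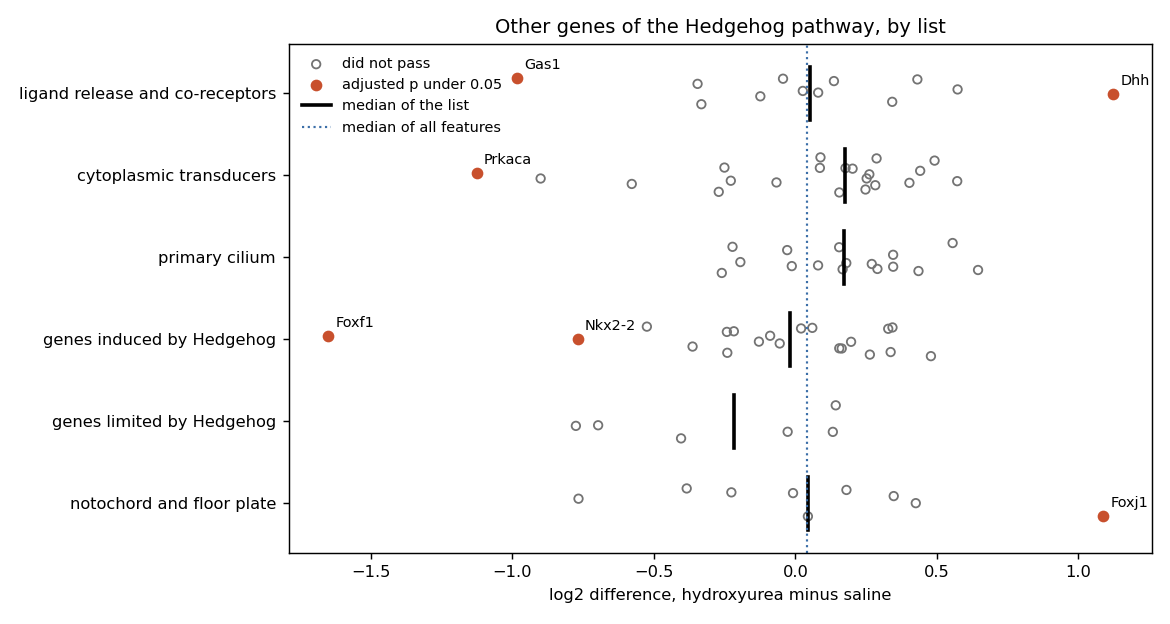
Log2 difference, hydroxyurea minus saline (horizontal axis), of the 84 measured genes in the 6 pathway lists (vertical axis), 1 point a gene, filled where the limma adjusted p is under 0.05, with the median of each list as a bar and the median of all features as a dotted line. The 6 named points are Dhh (1.12) and Foxj1 (1.09) to the right and Gas1 (-0.98), Prkaca (-1.13), Nkx2-2 (-0.77) and Foxf1 (-1.65) to the left, and the list medians lie between -0.22 and 0.18.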

How the data were processed

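The authors deposited 1 scanner file per array with Cy3 intensity values from Agilent Feature Extraction 11.5.1.1, per the submitters' processing notes, with the background subtracted and no scaling between arrays, per the file headers. The authors' deposited table holds log2 values centred per probe, and its normalization is not given in the sources used here. Control spots and 151 to 315 outlier spots per array were left out, and log2 processed signals were averaged per probe and scaled to the array's 75th percentile. Probes well above background on at least 4 of 8 arrays were kept (30759). The probe with the highest mean stood for its gene, which gave 23173 features, 14658 of them named genes. Of 55681 probes, 26582 took 1 symbol from a RefSeq table of GRCm38.p6, 0 several and 29099 none. Groups came from the labels. Hydroxyurea and saline were compared with limma 3.58.1 in R 4.3.3 (lmFit, eBayes, no covariate, two-sided, Benjamini-Hochberg over all features, threshold 0.05). The SE of a probe that stands for its gene comes from this fit. That of any other probe comes from the same fit with every probe its own feature. The SE of the interaction comes from a fit with treatment, slide and their product. The steps were tested on simulated data.

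The genes and lists were chosen with earlier results of these data known. Named beside the 9 genes were, per list, the called genes with the lowest p (at most 4, or 2 where none was called), Cdkn1a and Ccng1, and the 3 genes most like Shh, Ptch1 and Gli1. Alternatives were other scalings, filters and probe rules, the slide as a block or alone, and arrays left out. With 4 arrays a group, their number limits the precision.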

Additional observations from a re-analysis of the deposited data

Results flagged for a closer look

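Among 48 groups of 4 arrays examined for the Hedgehog and other named genes, 2 held an array that stood apart from the rest of its group, where chance gives about 5%. In the second probe of Smo, saline 4 read 1.99, while the nearest other saline array read 1.40 and the lowest 1.38. In Nkx2-2, hydroxyurea 3 read -1.32, while the nearest other treated array read -1.69 and the lowest -1.77. Neither array stood apart in this way in the other probe of its gene.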

How the results depend on the processing

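Ptch1 kept its negative sign under all 21 other settings. Shh, Smo and Sufu changed sign under some. Of all features, 1426 were called, against 611 with no filter on dim probes, 56 and 3 on slide 1 and slide 2 alone, 3787 without hydroxyurea 2 and 3 (chosen after seeing the data), and 523 to 3736 with 1 array left out. The highest of these, 3736, was without hydroxyurea 2. Calls on either slide alone rest on 2 arrays a group. Of the Hedgehog genes, from whose count nothing is read, 0 passed the threshold on slide 1 and 0 on slide 2, with 1 at an unadjusted p under 0.05 on each. Of the other pathway genes 6 were called, against 10 with quantile normalization, 2 with no filter and 11 without hydroxyurea 2 and 3. On each slide alone 0 were called (6 and 12 at an unadjusted p under 0.05), and 2 to 12 with 1 array left out. Nothing is read from the unadjusted counts on each slide, since the share over all features there is not given. With every probe its own feature, 9 of these genes had a called probe, 2 higher and 7 lower. Among the 7 is the dim probe of Pax9, which passed the filter only through the saline arrays. Higher and lower calls were 640 and 786, against 945 and 902 with quantile normalization, and 807 and 746 with probes well above background on all 8 arrays. Median centring moved all differences by 0.12. The cause of these shifts was not tested. The normexp correction planned on mean signals was run on median signals, since the files used hold no mean signal. No paired analysis was possible because the labels give no replicate numbers. Slide and row hold 1 array of each group, and with them as a block 1202 features and 5 other pathway genes were called.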
